A study of Mus musculus with 3 samples.

Results

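The 10 genes described here encode the alpha tubulins Tuba1a, Tuba1b and Tuba1c and the beta tubulins Tubb2a, Tubb2b, Tubb3, Tubb4a, Tubb4b, Tubb5 and Tubb6. They were taken by gene symbol from a table of 24384 named genes, and all 10 symbols were present. The table covers 3 poly(A) RNA libraries of N1E-115 cells, a mouse neuroblastoma line used as a model of sympathetic neurons, labelled as wild type, untreated and at day 0. Because there was a single group, no condition was compared. The data give the level of each isotype, the mixture of isotypes within a library and the spread between libraries.

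The libraries held 13942014 to 17731376 estimated counts in named genes. Levels are counts scaled to library totals (CPM), and levels of different genes are compared as CPM per kilobase of exon (GENCODE M21 on mm10). A gene was called detected at 1 CPM or more in every library, which 47.3% of named genes reached. All 7 listed markers of sympathetic neuroblasts were detected (Hand2, Dbh, Chga, Stmn2, Phox2a, Th and Gata3), with a summed level of 2162 to 2403 CPM per library. Of the 16 listed markers of glia, fibroblasts, blood cells and endothelium, 4 were detected, and no such list summed to more than 8.18 CPM in a library. Of the defining markers, Ptprc, Ppbp, Kdr and Lum had no counts. The labels do not say whether the libraries came from separate cultures, so their spread may be technical.

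Alpha and beta tubulin join into a dimer, and dimers polymerise into microtubules, which carry transport in axons and form the mitotic spindle of dividing cells. Mammals make each partner from several genes. The encoded isotypes are closely similar over the globular body and differ mostly in an acidic tail at the carboxyl end, which lies on the microtubule surface and is the site of polyglutamylation and of the removal of the last tyrosine of alpha tubulin. Tubb3 is a widely used neuronal marker, Tuba1a is the principal alpha isotype of developing neurons, Tubb2a and Tubb2b are abundant in brain, and Tubb4a is an isotype of the brain with high levels in oligodendrocytes. Tuba1b, Tuba1c, Tubb4b, Tubb5 and Tubb6 are found in many cell types.

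The ends of 7 of the coding sequences are shown first because they encode the variable acidic tail. They are the last 60 bases on the coding strand, read from the GENCODE M21 transcript with the longest coding sequence. The capitals mark the last codon of the protein and the stop codon.
Tuba1c (chr15:99037950-99038009, plus strand): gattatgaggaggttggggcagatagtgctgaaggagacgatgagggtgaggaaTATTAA
Tubb2a (chr13:34074468-34074527, minus strand): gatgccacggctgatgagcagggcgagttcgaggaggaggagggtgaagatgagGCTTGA
Tubb2b (chr13:34127471-34127530, minus strand): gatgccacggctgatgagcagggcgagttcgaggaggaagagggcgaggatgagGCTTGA
Tubb3 (chr8:123421623-123421682, plus strand): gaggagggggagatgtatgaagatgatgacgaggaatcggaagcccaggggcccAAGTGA
Tubb4a (chr17:57080690-57080749, minus strand): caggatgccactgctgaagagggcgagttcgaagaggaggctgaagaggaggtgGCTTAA
Tubb4b (chr2:25222308-25222367, minus strand): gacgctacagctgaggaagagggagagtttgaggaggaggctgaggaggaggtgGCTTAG
Tubb5 (chr17:35834982-35835041, minus strand): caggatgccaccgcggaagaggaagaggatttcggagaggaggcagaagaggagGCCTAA

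Tuba1c ends in a tyrosine codon before the stop, the target of the enzymes that remove and restore the last tyrosine, and none of the 6 beta genes shown does. Compared position by position back from the stop codon, Tubb2a and Tubb2b differed at 3 of the 57 bases before it. Tubb4a and Tubb4b differed at 12 in the same count, which allowed no gap. Tubb4a encodes 444 residues and Tubb4b 445, so those 12 may include bases compared out of register. The beginning of the coding sequence carries the signal for tubulin autoregulation, in which Ttc5 binds the first residues of a growing tubulin chain when free dimer is in excess and the mRNA is then degraded. The first 30 coding bases of 5 members are shown, with capitals on the 12 bases that encode these residues. In the alpha genes the printed run crosses an intron, so its genomic span is longer than the sequence.
Tuba1a (chr15:98951665-98953453, minus strand): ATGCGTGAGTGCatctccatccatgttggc
Tuba1b (chr15:98933169-98934335, minus strand): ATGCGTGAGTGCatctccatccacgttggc
Tuba1c (chr15:99030422-99034120, plus strand): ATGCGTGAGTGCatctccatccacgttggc
Tubb3 (chr8:123411606-123411635, plus strand): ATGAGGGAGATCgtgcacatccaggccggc
Tubb5 (chr17:35838024-35838053, minus strand): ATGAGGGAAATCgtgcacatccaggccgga

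The alpha genes had identical capitals. All 7 beta genes encoded the same first residues as one another, through codons that differ between genes, as seen between Tubb3 and Tubb5.

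Over the whole coding sequence the alpha genes were 97.1 to 98.3% identical in bases in their 3 pairs, and the beta genes 80.2 to 96.5% in 21 pairs. The upper value belongs to Tubb2a and Tubb2b. An alpha and a beta gene shared 54.8 to 57.1%. Within the alpha and within the beta genes, the encoded proteins were more alike than the bases in every pair: Tuba1a and Tuba1b differed at 2 of 451 residues, Tubb2a and Tubb2b at 2 of 445, and Tubb4a and Tubb4b at 7. Tubb3 and Tubb6 were the most distant of the beta isotypes, at 90.2 to 92% residue identity with the others. The pairs closest in bases, those among the alpha genes and Tubb2a with Tubb2b, were also neighbours in the genome. Tuba1b (chr15:98931425-98934565) and Tuba1a (chr15:98949837-98953703) lie 15.3 kb apart on the minus strand, and Tuba1c (chr15:99029891-99038110) follows on the plus strand after a further 76.2 kb. Tubb2a (chr13:34074274-34078007) and Tubb2b (chr13:34126748-34130466) lie 48.7 kb apart on the minus strand. The rest stand alone: Tubb3 at chr8:123411424-123422015, Tubb4b at chr2:25222160-25224702, Tubb5 at chr17:35833921-35838306, Tubb4a at chr17:57080066-57087782 and Tubb6 at chr18:67390717-67402749.

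N1E-115 cells expressed 9 of the 10 isotype genes, each at over 100 CPM in every library, a level that 9.23% of named genes reached. Together they took 0.944 ± 0.028% of all counts (SD, n = 3). In bulk RNA, fewer cells expressing a gene and less of its RNA per cell cannot be told apart. Tuba1a was the highest per kilobase, at 1359, 1468 and 1369 CPM per kb in replicates 1, 2 and 3. It ranked 6 among all named genes on that scale. Tuba1b followed at 883, 970 and 943 CPM per kb, with the libraries' range wholly below that of Tuba1a. Tuba1c was at 340, 347 and 364 CPM per kb, below both of the other alpha genes in each library.

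Tubb5, the beta isotype common to most dividing cells, led the beta genes at 778, 799 and 850 CPM per kb. Tubb3 was the next at 369, 391 and 346 CPM per kb. Every library had more Tubb5 than Tubb3, by a mean log2 ratio of 1.13 ± 0.14 per kilobase (SD, n = 3). The gap was wider without length scaling, at means of 2691 CPM for Tubb5 and 689 CPM for Tubb3, and per kilobase of coding sequence, at 2020.3 and 510.3 CPM per kb for the same genes. Tubb4b, the beta isotype of cilia and of many other tissues, was at 173, 194 and 195 CPM per kb. Tubb2a was at 163, 173 and 149 CPM per kb and Tubb2b at 92.8, 95.6 and 72.1. In each library Tubb2a exceeded Tubb2b, by a mean log2 ratio of 0.91 ± 0.13 per kilobase of exon. This gap was narrower without length scaling, at means of 261 CPM for Tubb2a and 199 CPM for Tubb2b. Per kilobase of coding sequence the means were 195.2 and 149.2 CPM per kb. Tubb6, expressed mainly outside the nervous system, was the lowest detected member, at 57.7, 59.4 and 50.5 CPM per kb.

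Tubb4a had no counts in any library. A count of 0 allows up to 3 counts, or 0.169, 0.215 and 0.194 CPM in replicates 1, 2 and 3, for counting error only. Its closest relative in protein sequence, Tubb4b, was at least 2011-fold higher per kilobase in each library, computed against that limit of 3 counts per library. All 75-base windows of the Tubb4a exons were its own among annotated transcripts. Of its 50-base windows, 4 of 2179 also occurred in Tubb2a and Tubb2b.

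**Figure D1:**
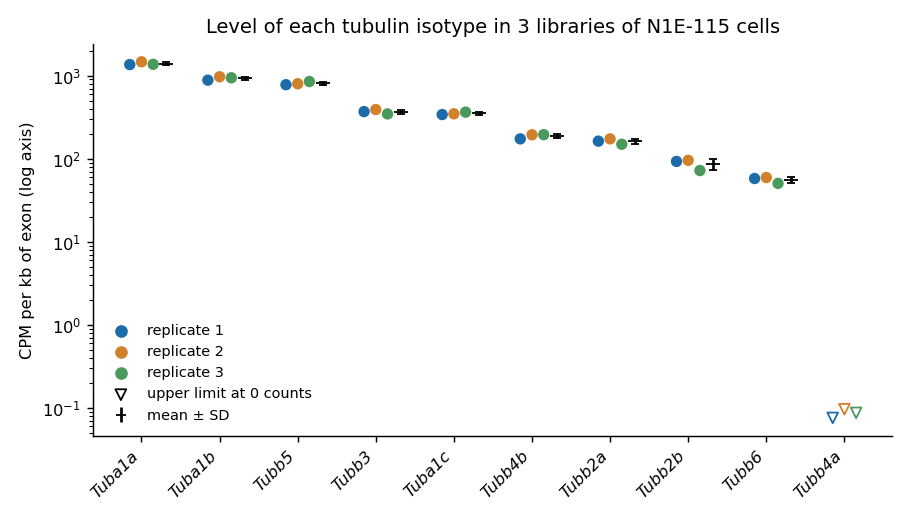
Level of each tubulin isotype in the 3 libraries, in CPM per kilobase of exon on a log axis, ordered by the mean; points are libraries, black bars the mean ± SD, and open triangles the upper limit of a count of 0. Of the 9 detected genes, Tuba1a at 1399 CPM per kb stands highest and Tubb6 at 55.9 CPM per kb lowest, and Tubb4a lies at the limit in all 3 libraries.

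Ordered by mean level per kilobase, the genes ran Tuba1a, Tuba1b, Tubb5, Tubb3, Tuba1c, Tubb4b, Tubb2a, Tubb2b, Tubb6 and Tubb4a. Of the 9 neighbouring pairs, 7 had library ranges that did not overlap. The other pairs were Tubb3 with Tuba1c (mean log2 ratio 0.07 ± 0.13, higher in 2 of 3 libraries) and Tubb4b with Tubb2a (0.21 ± 0.15, higher in 3 of 3). With 3 libraries, a two-sided exact sign-flip test of a pair cannot go below p = 0.25. The order depended on the length used. With the transcript of the longest coding sequence, Tubb5 averaged 1016 and Tuba1b 1002 CPM per kb, with overlapping ranges, and Tuba1c (404) stood above Tubb3 (369). Tubb2b (91.3) and Tubb6 (77.4) also had overlapping ranges on that scale. Without length scaling, Tubb5 (2691 ± 123 CPM) came before Tuba1a (2522 ± 109), again with overlapping ranges.

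The alpha pool was dominated by Tuba1a, with 52.2 ± 0.9% of the summed CPM per kb of the 3 alpha genes, followed by Tuba1b with 34.7 ± 0.5% and Tuba1c with 13.1 ± 0.6% (SD, n = 3). In the beta pool Tubb5 held 47.6, 46.6 and 51.1% in replicates 1, 2 and 3. Tubb3 held 22.6, 22.8 and 20.8%. Tubb4b held 11.2 ± 0.6%, Tubb2a 9.69 ± 0.62%, Tubb2b 5.20 ± 0.75% and Tubb6 3.35 ± 0.27%. Replicate 3 thus had more Tubb5 and less Tubb3, Tubb2a, Tubb2b and Tubb6 in its beta pool than the other libraries. The isotypes associated with the nervous system (Tubb2a, Tubb2b, Tubb3 and Tubb4a) together made up 38.2, 38.5 and 34.1% of the beta pool, a mean of 37.0 ± 2.5%. This share was 31.7 ± 2.3% with the longest-coding transcript as the length and 26.3 ± 2.1% without length scaling.

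**Figure D2:**
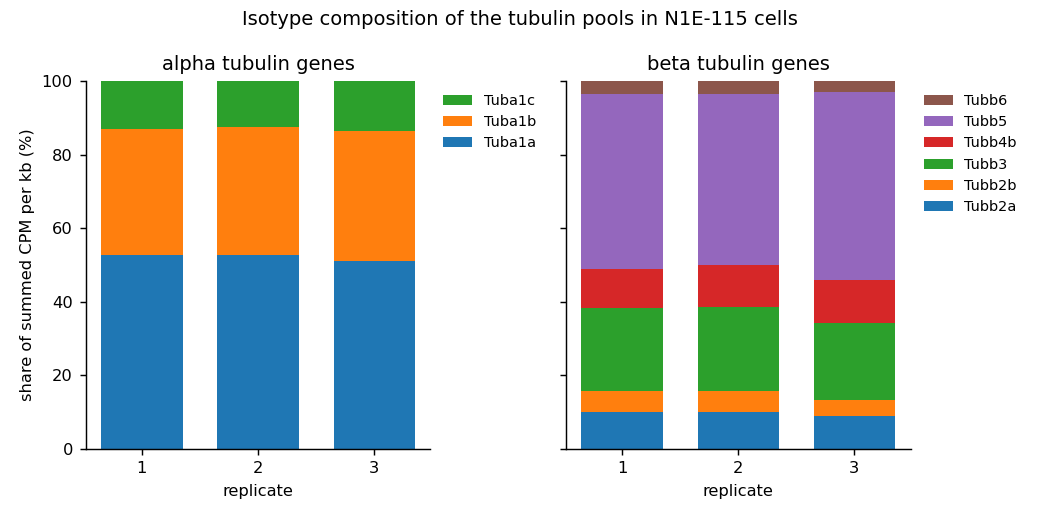
Share of each isotype in the summed CPM per kilobase of the alpha genes (left) and the beta genes (right), one stacked bar for each library. Tuba1a fills 51.2 to 52.7% of the alpha pool and Tubb5 46.6 to 51.1% of the beta pool; Tubb4a, with no counts, is not drawn.

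The summed alpha level exceeded the summed beta level in 3 of 3 libraries, at 2582, 2785 and 2676 CPM per kb for alpha and 1634, 1713 and 1663 for beta. The ratio was 1.61 ± 0.02 (log2 0.68 ± 0.02, n = 3; two-sided exact sign-flip p = 0.25, the smallest that 3 libraries allow). Its size rested on the annotated lengths more than on the libraries. The log2 ratio was 0.52 ± 0.02 with the longest-coding transcript, 0.21 ± 0.03 without length scaling and 0.20 ± 0.03 per kilobase of coding sequence. Among the libraries it ran between 0.66 and 0.70.

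Fractional values can arise when reads that match several genes are divided among them. They were present in 8 of the 10 members, against 3.40% of detected genes and 2.37% of all named genes. The exceptions were Tubb5, with 45884, 37055 and 43635 counts, and Tubb4a. Tubb2a (4646.693, 3892.89 and 3710.683) and Tubb2b (3776.307, 3059.11 and 2552.317) were fractional in every library, yet their sum was whole each time, at 8423, 6952 and 6263 counts. Tuba1a, Tuba1b and Tuba1c were also fractional in every library, and their sum was not whole, at 86584.923, 73330.075 and 78210.502. Of all other genes with fractional values, added one at a time, only Gm6682 brought this sum to a whole number in every library, within a tolerance of 0.005. Gm6682 is annotated as a processed pseudogene and held 100.076, 82.925 and 57.498 counts, 0.101 ± 0.024% of the alpha sum. The gamma tubulin genes Tubg1 and Tubg2 formed a further pair with whole sums, 3510, 2893 and 3086.

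Tubb3, Tubb4b and Tubb6 were fractional in replicate 1 only. Their fractional parts there were 0.564, 0.323 and 0.113, which sum to 1, and their summed counts were 21146. The same genes held 57.8, 30.4 and 11.8% of that sum. In replicates 2 and 3 all of them were whole. A fractional part does not say how many reads were divided.

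The annotated sequences were searched for the same sharing. Of the 75-base windows in the exons of Tuba1a, 70.4% were also found in a transcript of another gene, and the shares were 70.0% for Tuba1b and 48.9% for Tuba1c. Their partners were one another and a set of predicted loci, among them Gm6682. Slc7a11, which encodes a cystine transporter, shared 38 windows with Tuba1a and 47 with Tuba1b and held 1309, 827 and 677 counts, all whole. The shares were 43.2% for Tubb2a and 30.2% for Tubb2b, with each other and with the pseudogene Tubb2a-ps2, which held 1 count in each library. Tubb2a and Tubb2b have a run of 551 identical coding bases (chr13:34074646-34075196 in Tubb2a). Tubb4b shared 29.9% of its windows, largely with Tubb4b-ps1 and Tubb4b-ps2, and with no member. Tubb3, Tubb4a, Tubb5 and Tubb6 shared none. The longest identical coding run was 47 bases between Tubb3 and Tubb6 and 35 bases between Tubb3 and Tubb4b. The read length is not given in the sources used here, and the same 6 members passed 10% at windows of 50, 100 and 150 bases.

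**Figure D3:**
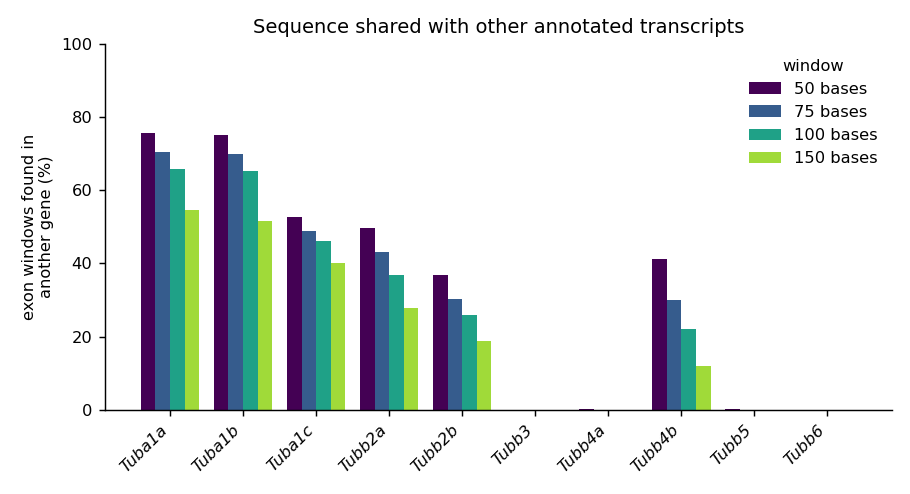
Percent of the exon windows of each member that also occur, on either strand, in an annotated transcript of another gene, for windows of 50, 75, 100 and 150 bases. The alpha genes, Tubb2a, Tubb2b and Tubb4b have tall bars at all lengths, and Tubb3, Tubb4a, Tubb5 and Tubb6 lie at or near 0.

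The split between Tuba1a, Tuba1b and Tuba1c and that between Tubb2a and Tubb2b are therefore uncertain. A division within each set leaves its sum unchanged, but for what Gm6682 received. Several loci that share windows with the alpha genes, such as AC157548.1 and Gm17383, were not among the named genes. Neither were Tubb4b-ps1 and Tubb4b-ps2. How reads that match such loci were counted is not known, so the alpha sum and Tubb4b carry that limit too. As sums, the alpha genes reached 4883, 5260 and 5068 CPM, and Tubb2a with Tubb2b reached 475, 499 and 406 CPM. Replicate 3 was the lowest of the 3 for the Tubb2a and Tubb2b sum.

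No member passed the test for variation between libraries (edgeR negative binomial deviance, Benjamini-Hochberg adjusted p = 0.9997 for each of the 9 members tested). The test asks for more spread than the model fitted to genes of similar level in these same libraries, not more than counting error. None of the 9 had an unadjusted p under 0.05 in this test, against 698 of all 11821 genes tested. With DESeq2's dispersion trend the numbers were 0 of the 9 and 473 of all genes. With so few members, a count of 0 does not set them apart from all genes. The fitted coefficient of biological variation of the members was 10.01 to 10.05%. With 3 libraries, differences of the size seen here could hardly be called, and the missed threshold does not show that the levels were equal. Over all 11821 genes tested, 0.643% were called. Among detected members the coefficient of variation of CPM ran between 3.46% for Tuba1c and 14.8% for Tubb2b, with a median of 6.09%, against 7.5% for the 2250 genes at 100 CPM or more. Tubb2b had the smallest unadjusted p (0.152) and had a log2 difference of -0.35 between replicate 3 and the mean of the other libraries.

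Several members had small differences in the same direction. After TMM scaling, replicate 2 was the highest for 6 of the 9 members and the lowest for none, and replicate 1 was the lowest for 5 and the highest for none. The median log2 difference of a library from the mean of the others was -0.09, 0.10 and -0.01 in replicates 1, 2 and 3 over the 9 members, against 0.00 in each library over all tested genes. Among 481 other genes at 100 CPM or more whose exon length lay within the members' range (1610 to 3327 nt), it was -0.13, 0.09 and 0.03. Tubb2b in replicate 3, at -0.35, lay below the 5th percentile of those 481 genes there (-0.26). In replicate 3 the members parted. Tuba1b, Tuba1c, Tubb4b and Tubb5 were higher there than in the mean of the other libraries, by 0.06 to 0.14, and Tuba1a, Tubb2a, Tubb2b, Tubb3 and Tubb6 lower, by values between -0.01 and -0.35. The summed members had a profile most like that of Rbbp4, Ssbp2, Fkbp1a, Sdf4 and Trp53, at Euclidean distances of 0.0040 to 0.0050 in centred log2 TMM-scaled CPM, against a median of 0.15 over 2241 genes. With 3 libraries of a single group this measures only how small library differences line up.

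**Figure D4:**
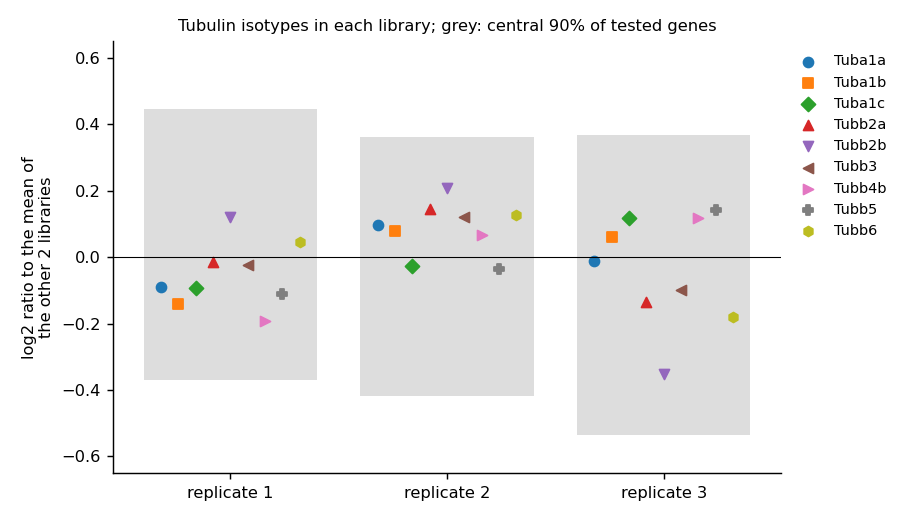
Log2 ratio of the TMM-scaled CPM of each detected member in a library to its mean in the other libraries; grey bars span the central 90% of the 11821 tested genes. All members lie within the grey bars of all genes, mostly below 0 in replicate 1 and above 0 in replicate 2, and Tubb2b is the lowest in replicate 3 at -0.35.

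Of the 10 other listed tubulin genes, 5 were detected. Tubg1, the main gamma tubulin, which nucleates microtubules, was at 84.5 ± 1.8 CPM per kb (191 ± 4 CPM). Its paralogue Tubg2 was at 5.91 ± 0.55 CPM per kb. Tuba8, an alpha isotype of muscle, testis and brain, was at 12.7 ± 2.0 CPM per kb, with 535, 449 and 365 counts. Tube1 and Tubd1, the epsilon and delta tubulins of centrioles, were at 2.11 ± 0.27 and 4.50 ± 0.32 CPM per kb. The alpha isotype Tuba4a held 0, 2 and 2 counts, and the testis alpha isotype Tuba3a held 1, 1 and 0. Tubb1, the beta tubulin of platelets, held 0, 1 and 0 counts. Tuba3b and Tubal3 had none.

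Genes that fold tubulin and assemble the dimer all passed the detection minimum (21 of 21), and their median level was 126 CPM. The members with the most counts were subunits of the CCT chaperonin, which folds actin and tubulin: Cct2 (1214 ± 63 CPM), Cct5 (1077 ± 81) and Cct7 (1060 ± 52). The cofactor Tbca, which holds beta tubulin after its release, was at 190 ± 21 CPM, and Tbce, which holds alpha tubulin, at 10.5 ± 1.3 CPM. Per kilobase of exon these were 235 ± 26 and 2.31 ± 0.28.

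Of 27 genes listed under tubulin modification, 26 were in the table under their own or an older symbol. Detected were 18, with a median of 16.1 CPM over the 26. Being listed does not show that a product itself modifies tubulin, and no activity was measured. Ttll12 (273 ± 22 CPM), Vash1 (150 ± 19) and Ttll1 (75.3 ± 3.0) had the most counts. Ttll1 is a polyglutamylase, and Vash1 cuts the last tyrosine from alpha tubulin. Its partner Svbp, listed as Ccdc23, was at 6.13 ± 0.53 CPM, and the ligase Ttl, which puts the tyrosine back, at 56.6 ± 2.1 CPM. Per kilobase, Vash1 stood at 57.8 ± 7.5, Ttl at 9.51 ± 0.35 and Svbp at 5.75 ± 0.50. Not detected were Ttll6, Ttll10 and Agbl2, which had no counts, and Ttll8, Ttll9, Ttll13, Agbl1 and Agbl4, each under 1 CPM in at least 1 library. Matcap1 was not matched.

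All 3 listed genes of tubulin mRNA autoregulation were detected: the sensor Ttc5 at 39.3 ± 2.7 CPM, its partner Scaper at 19.3 ± 0.05 and Cnot11, of the deadenylase complex they recruit, at 106 ± 4. The 8 nucleation genes were all detected too, with a median of 49.1 CPM, and Mzt1 (90.9 ± 5.5), Tubgcp3 (62.3 ± 2.2) and Tubgcp4 (53.3 ± 2.2) had the most counts. So were the 7 severing enzymes, with a median of 45.1 CPM, where Fignl1 (182 ± 6), Spast (86.7 ± 0.4) and Katna1 (58.2 ± 5.5) led.

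**Figure D5:**
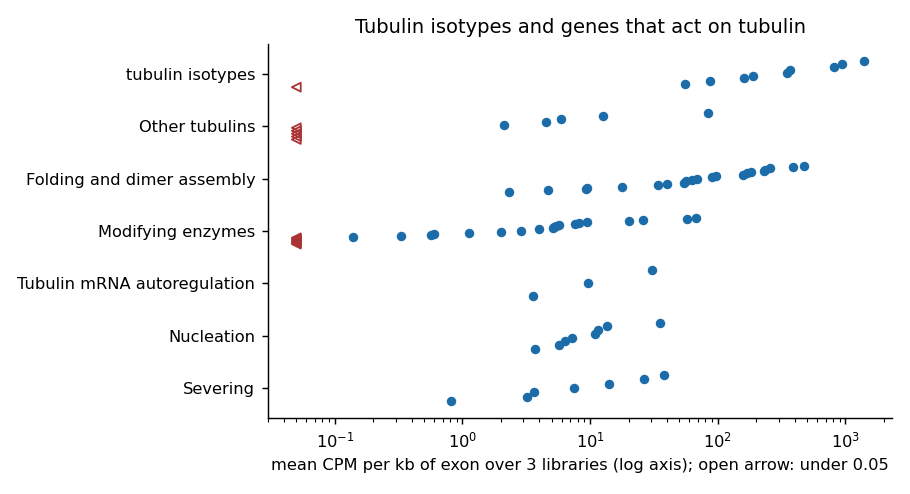
Mean CPM per kilobase of exon over 3 libraries, on a log axis, for the 10 isotypes (top row) and 6 lists of genes of tubulin biology; each point is a gene and open arrows mark genes under 0.05 CPM per kb. The 9 detected isotypes lie between 55.9 and 1399 CPM per kb, and of the other genes Cct2 comes furthest right at 475.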

How the data were processed

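The authors deposited a table of estimated counts per gene symbol, 1 column per library, not scaled for depth. STAR and mm10 are named in the submitters' processing notes; which program counted the reads, on which annotation and with which strand setting is not given in the sources used here. Overlapping genes may not be separable. RNA was extracted with ISOGEN and libraries were made with a directional poly(A) kit, per the labels' protocols. The table has 24411 rows, of which 27 named by calendar dates (0.281 to 0.306% of counts) were left out. No other columns held values. Estimated counts, deposited with up to 3 decimals, were rounded to whole numbers before use.

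CPM was the count over the library total, with depth as given in the report. Lengths came from GENCODE M21, which matched 98.5% of genes. A value was called fractional when over 0.01 from a whole number. Spread between libraries was tested in R 4.3.3 with edgeR 4.0.16. A negative binomial model with an intercept alone was fitted across all genes (TMM, filterByExpr, trended dispersion), and each deviance was referred to chi-square on 2 degrees of freedom. This replaced a quasi-likelihood test, which needs a contrast. The test was also tried on counts simulated from this fit, with 200 genes each lowered in a single library. It called 0.5% of them at 1.5-fold, 49.5% at 2-fold and 90.5% at 4-fold. The 200 genes were drawn at random from all 11821 tested genes, at every level. These shares therefore do not measure recovery for genes at the members' levels. DESeq2 1.42.0 gave alternative size factors and an alternative dispersion trend. Each pair of libraries differed by more than sampling noise, with a chi-square of 12.0 to 16.3 times its degrees of freedom.

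Shared windows were looked up in GENCODE M21 transcripts on both strands; the search of a genome that had been planned was not made, since none was used here. Coding identity came from global alignment in Biopython 1.88. Named genes are all members, all listed tubulins, the 3 highest by CPM and the undetected genes of each list, and the 5 closest profiles; Tbca, Tbce, Svbp, Ttl, Ttc5, Scaper and Cnot11 were named for their roles. The members and lists were chosen with earlier results of these data known. Sequence of the chromosome 18 member and some other coding ends are not reported here.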

Additional observations from a re-analysis of the deposited data

How the results depend on the processing

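Over the alternatives of detection minimum, library scaling, filter, dispersion, rounding and window length, the counts of members detected (9), varying between libraries (0) and sharing sequence (6) kept their values. The share of nervous-system isotypes in the beta pool was 31.7% with the longest-coding transcript, 26.3% without length scaling, 26.1% per kilobase of coding sequence, a length added after the data were seen, and 0% with fractional members left out, which leaves only Tubb5 and Tubb4a. The share of Tuba1a in the alpha pool was 49.9, 49.7 and 49.7% under the same 3 length settings. Leaving out single replicates gave 36.2 to 38.4% for the nervous-system share, 51.9 to 52.7% for Tuba1a, a log2 alpha to beta ratio of 0.67 to 0.69, 8 neighbouring pairs apart, and 5 to 8 members with fractional counts; the value of 5 came without replicate 1. The number of all genes varying between libraries was 76, against 116 with a common dispersion, 47 with DESeq2's dispersion trend, and 36 to 52 without single replicates. No alpha value could be had without fractional members, since all 3 are fractional. No paired analysis was possible because there was 1 group. The main limits are the division of reads within the alpha genes and within Tubb2a and Tubb2b, the annotated lengths, and 3 libraries. A further limit is the sequence that the alpha genes and Tubb4b share with loci that are not among the named genes.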
